A study of Danio rerio with 8 samples.

Results

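Crystallin transcripts were followed in whole retinas of albino zebrafish (Danio rerio) after a light lesion, a loss of photoreceptors caused by intense light. The genes were 10 listed crystallins of the lens and small heat shock type, and every probe set annotated to exactly 1 of them was taken. Of the 10 genes 6 were measured, each by 1 probe set among 15502: the alpha-crystallins cryaa and cryaba, the beta-crystallins cryba4 and crybb1, and the gamma-crystallins crygm4 and crygs1. The listed cryabb, cryba1b, cryba2a and crygn2 had no probe set under their symbols and were not analysed here. The light lesion group was 4 arrays of retinas from albino fish that were adapted to darkness and then held in bright constant light for 72 h. The control group was 4 arrays of retinas from albino fish that were also dark adapted and then went back to ordinary lighting. Bright light and lesion came together, so their effects cannot be told apart, and the labels do not say whether an array held 1 fish or a pool. Nothing shows the replicates to be separate fish, so p-values reflect only how these samples spread, and that spread may be technical. The series asked which genes change as photoreceptors regenerate.

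Crystallins are the abundant soluble proteins of the eye lens. The alpha-crystallins are small heat shock proteins, chaperones that hold unfolding proteins in solution, whereas the beta- and gamma-crystallins share a fold of their own and serve mainly as structural proteins of lens fibre cells. Crystallins are also made outside the lens, and in mammals their retinal transcripts are known to change after light damage and other injuries. In zebrafish the alphaB-crystallin gene is duplicated, with cryaba known mostly from the lens and cryabb from many tissues.

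All levels are log2 values from RMA, a method that gives 1 normalized value per probe set and array, so that 1 unit is a 2-fold difference. Each log2 fold change subtracts the mean of the control arrays from that of the light lesion arrays. Background was set at 7.04, the highest mean of 27 probe sets for bacterial transcripts. They were taken as not added to the samples, because all their means lay below the median of the means of all probe sets. Array medians ran from 7.63 to 7.67 in light lesion arrays and from 7.63 to 7.69 in control arrays. The GAPDH control probe sets, read at both ends of the transcript as a gauge of RNA integrity and labelling, differed (3′ minus 5′) by 0.285, 0.158, 0.228 and 0.181 in light lesion replicates 1 to 4, against 0.0383, 0.0297, 0.0774 and 0.0346 in control replicates 1 to 4. Among 5159 probe sets at or below background in both groups, control replicate 3 held the highest control value in 56.0%, while light lesion replicates 1 and 4 held the highest lesion value in 36.9% and 38.0%. Light lesion replicates 1 and 3 were the highest lesion arrays for cryaba, crygs1 and cryaa, but only for cryaba did both exceed every other array. Because of cryaba, the fold change of each of the 6 crystallins is also given without them.

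Of the 6 crystallin probe sets, 1 passed the test (crygm4, lower), against 40.2% of all probe sets called in either direction, 19.5% higher and 20.7% lower (limma, Benjamini-Hochberg adjusted p under 0.05). Among probe sets at or below background in both groups, 13.9% were called. In whole-retina RNA fewer cells of a type and less RNA per cell cannot be told apart. The other 5 did not pass. Their log2 fold changes ran from -0.08 to 1.01, and their groups overlapped, as did those of crygm4. Over all probe sets the groups did not overlap in 40.0%, with all light lesion arrays below all controls in 21.0%. Over the 6 genes the median log2 fold change was 0.08, beside -0.03 over all 8793 genes. The spread among the lesion arrays differed between the members. It was large for cryaba, crygs1 and cryaa (SD 1.39, 0.69 and 0.38), against a median of 0.0908 over all probe sets. For cryba4 it was near that median (0.0943), and for crygm4 it was small (0.0337).

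**Figure D1:**
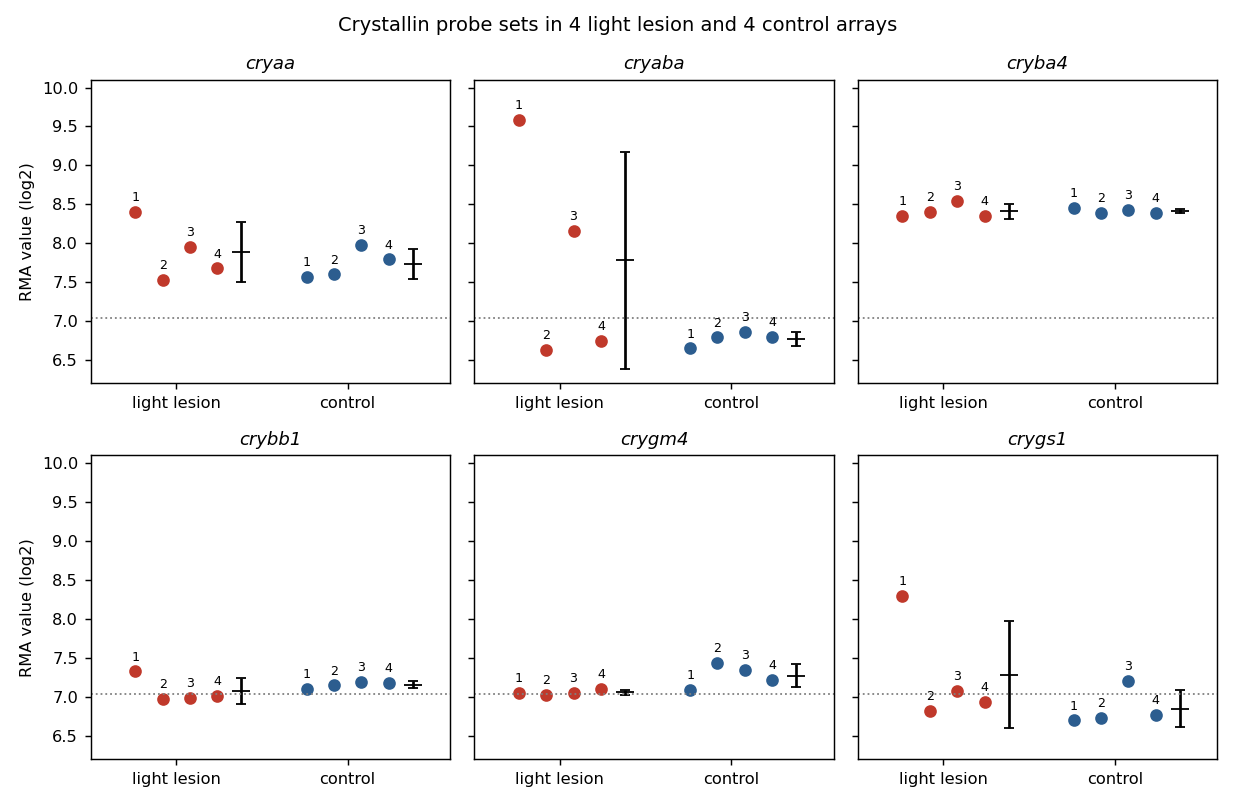
RMA values (log2) of the 6 crystallin probe sets, with light lesion arrays in red and control arrays in blue, numbered by replicate. Black marks show the mean ± SD (n = 4), and the dotted line is the background level of 7.04. In light lesion replicates 1 and 3 cryaba reached 9.59 and 8.16, with every other array below background.

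The widest differences between arrays were those of cryaba, an alphaB-crystallin. It measured 9.59, 6.62, 8.16 and 6.74 in light lesion replicates 1 to 4, against 6.65, 6.79, 6.86 and 6.79 in control replicates 1 to 4. Only light lesion replicates 1 and 3 lay above background, and the other lesion arrays fell within or just under the range of the controls. Relative to the control mean, light lesion replicate 1 was 2.82 higher on the log2 scale (7.04-fold) and replicate 3 was 1.39 higher (2.61-fold), whereas replicates 2 and 4 stood at -0.15 and -0.03. Since all 4 controls were at background, these folds can also be given against the background level, as at least 5.86-fold in light lesion replicate 1 and at least 2.17-fold in replicate 3.

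The group means of cryaba were 7.78 ± 1.39 in light lesion arrays and 6.77 ± 0.09 in control arrays (SD, n = 4 each). The log2 fold change of 1.01 (SE 0.56, 95% interval -0.26 to 2.27) did not pass, with a limma adjusted p = 0.190. The lesion mean was 1.67-fold above background, with light lesion replicates 1 and 3 above that level and replicates 2 and 4 below it. An exact two-sided permutation test over the 70 assignments of arrays gave p = 0.400. Without light lesion replicates 1 and 3 the log2 fold change was -0.09 (limma adjusted p = 0.434), and without replicate 1 alone it was 0.40.

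The lesion spread of cryaba was the second largest of 15502 probe sets, at an SD of 1.39 against a median of 0.0908 over all probe sets, and only a probe set annotated to both rhof and mhc1uba spread more. Its control SD of 0.0880 lay close to the median control SD of 0.0865. Of all probe sets, cryaba was the only one in which light lesion replicates 1 and 3 were both at least 1 log2 unit above each of the other 6 arrays. Of the other pairs of arrays, 2 had 2 such probe sets each and the rest had 0.

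The second alpha-crystallin, cryaa, lay above background on all 8 arrays. It measured 8.40, 7.52, 7.95 and 7.68 in light lesion replicates 1 to 4 and 7.56, 7.60, 7.98 and 7.79 in control replicates 1 to 4. Light lesion replicate 1 was the highest of all arrays, while the other lesion arrays lay within or just under the control range. The means were 7.89 ± 0.38 in light lesion arrays and 7.73 ± 0.19 in control arrays (SD, n = 4 each), a log2 fold change of 0.15 (SE 0.18, 95% interval -0.24 to 0.55) that did not pass (limma adjusted p = 0.521). Without light lesion replicates 1 and 3 it was -0.13 (limma adjusted p = 0.454).

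The difference between both alpha-crystallin genes was then taken on each array, as cryaba minus cryaa. It was 1.19, -0.90, 0.20 and -0.93 in light lesion replicates 1 to 4, against -0.91, -0.81, -1.12 and -1.0002 in control replicates 1 to 4. Thus cryaba moved further than cryaa in light lesion replicates 1 and 3, and the other 6 arrays gave similar values. In those 6 arrays cryaba was below background, so their similarity says little about the pair. The group difference of 0.85 did not pass (exact two-sided permutation test, p = 0.171, 1 pair compared, where 4 against 4 arrays allow a smallest p of 0.0286).

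Of 10 listed small heat shock proteins outside the crystallins 3 were measured, and 2 rose and 1 fell, against 44.5% of all genes called in either direction. With the GAPDH difference as a covariate 2 of the 3 were called, both higher. Whether their changes differed from those of the alpha-crystallins was not tested. The gene hspb8, a small heat shock protein known to act with a co-chaperone in the removal of misfolded proteins, measured 8.39, 8.58, 8.22 and 8.57 in light lesion replicates 1 to 4, against 7.20, 7.23, 7.32 and 7.37 in control replicates 1 to 4. It rose by 1.16 on the log2 scale (SE 0.08, limma adjusted p = 5.82e-06), and the groups did not overlap.

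The stress chaperone hspb1 measured 9.62, 10.35, 9.80 and 9.95 in light lesion replicates 1 to 4, against 9.41, 9.29, 9.30 and 9.26 in control replicates 1 to 4, a rise of 0.61 (SE 0.13, limma adjusted p = 0.00505). The related hspb6 measured 7.46, 7.70, 7.47 and 8.33 in light lesion replicates 1 to 4, against 9.08, 8.87, 8.93 and 8.99 in control replicates 1 to 4, a fall of -1.23 (SE 0.17, limma adjusted p = 3.67e-04). In hspb8, hspb1 and hspb6, light lesion replicates 1 and 3 were the lowest lesion arrays, whereas for cryaba they were the highest. They thus lay nearest the controls for hspb8 and hspb1 but furthest from them for hspb6. Genes outside the heat shock lists, such as gfap and krt8, also had these replicates lowest. The share of all probe sets with this pattern was not counted.

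**Figure D2:**
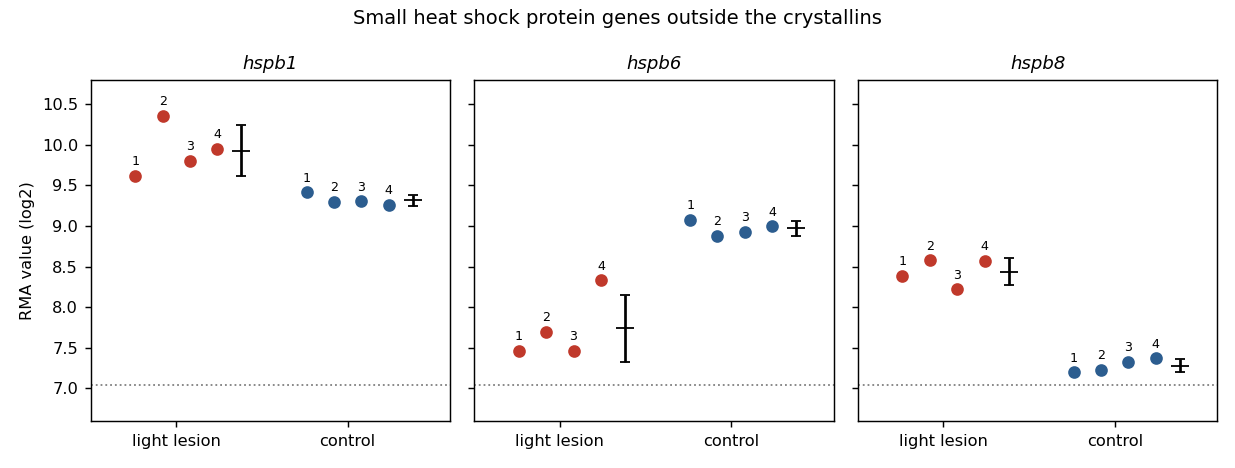
RMA values (log2) of the 3 small heat shock protein genes outside the crystallins, with light lesion arrays in red and control arrays in blue, the mean ± SD (n = 4) and the background level as a dotted line. In each gene the light lesion and control arrays do not overlap, with hspb8 and hspb1 higher and hspb6 lower in light lesion arrays.

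In the wider heat shock response list, 20 of 28 genes were measured, of which 6 rose, 8 fell and 6 did not pass, beside 24.4% of all genes called higher and 20.1% called lower; the median of their log2 fold changes was -0.06. The mitochondrial chaperonin partner hspe1 rose by 0.80 (limma adjusted p = 6.87e-05) and the cytosolic chaperone hsp90ab1 by 0.47 (limma adjusted p = 6.30e-05). The inducible chaperone hsp70.3 had a log2 fold change of -0.87 (limma adjusted p = 2.35e-04). A further member, serpinh1b, a chaperone of collagen in the endoplasmic reticulum, measured 7.93, 6.90, 6.05 and 6.17 in light lesion replicates 1 to 4, against 6.15, 6.12, 6.22 and 6.30 in control replicates 1 to 4. It was named after its values were seen, because cryaba, crygs1 and serpinh1b were the only 3 of 15502 probe sets in which light lesion replicate 1 exceeded every other array by at least 1 log2 unit. Its lesion and control means both lay below background (limma adjusted p = 0.236).

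**Figure D3:**
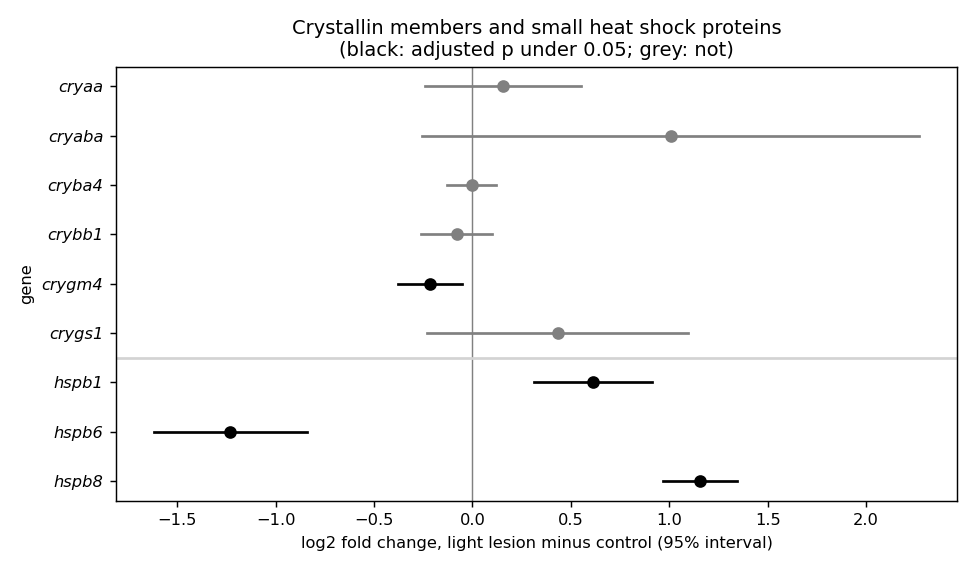
Log2 fold change (light lesion minus control) with its 95% interval for the 6 crystallins and, under the line, the 3 small heat shock protein genes. Black marks passed at an adjusted p under 0.05 and grey marks did not. Among the crystallins crygm4 alone passed, at -0.22, and the interval of cryaba runs from -0.26 to 2.27.

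The gamma-crystallin crygs1, of the gamma-S class found in the vertebrate lens, was also high in light lesion replicate 1. It measured 8.30, 6.81, 7.08 and 6.93 in light lesion replicates 1 to 4 and 6.70, 6.72, 7.21 and 6.76 in control replicates 1 to 4. Light lesion replicate 1 was 1.45 above the control mean on the log2 scale, but that mean lay at background, with 3 of 4 controls below the background level, so no fold is given. Among the lesion arrays, replicate 3 was the only other one above background, though below control replicate 3. The means were 7.28 ± 0.69 in light lesion arrays and 6.85 ± 0.24 in control arrays (SD, n = 4 each). The log2 fold change of 0.43 (SE 0.29, 95% interval -0.23 to 1.096) did not pass (limma adjusted p = 0.279). It was 0.09 without light lesion replicate 1 and 0.03 without replicates 1 and 3. The lesion SD of crygs1 ranked 20 among 15502 probe sets.

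The gamma-M-crystallin crygm4, of a class known from fish lenses, was the member called lower. It measured 7.05, 7.02, 7.04 and 7.10 in light lesion replicates 1 to 4 and 7.09, 7.44, 7.34 and 7.22 in control replicates 1 to 4. All lesion arrays lay close to the background level, and control replicate 1 lay below light lesion replicate 4. The means were 7.05 ± 0.03 in light lesion arrays and 7.27 ± 0.15 in control arrays (SD, n = 4 each), and crygm4 fell by 0.22 on the log2 scale (SE 0.07, limma adjusted p = 0.0408). Leaving out any of the other 7 arrays than control replicate 1 ended the call (limma adjusted p from 0.0561 to 0.106), and the exact two-sided permutation test gave p = 0.0571. Without light lesion replicates 1 and 3 the log2 fold change was -0.21 (limma adjusted p = 0.154).

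A further probe set was annotated to both crygm4 and the extracellular matrix gene efemp2b and so was not counted as a member. It measured 9.19, 9.11, 8.75 and 8.80 in light lesion replicates 1 to 4, against 9.65, 9.85, 9.72 and 9.69 in control replicates 1 to 4. The groups did not overlap, and the log2 fold change was -0.77 (SE 0.10, limma adjusted p = 2.73e-04). Which of both genes this probe set read cannot be told from the annotation.

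The beta-crystallins, acidic and basic subunits that associate with each other in the lens, differed little between groups. The basic crybb1 measured 7.32, 6.97, 6.99 and 7.01 in light lesion replicates 1 to 4 and 7.10, 7.14, 7.19 and 7.18 in control replicates 1 to 4. Light lesion replicate 1 was again the highest array, and the other lesion arrays lay below background and below all controls. The log2 fold change was -0.08 (SE 0.08, 95% interval -0.26 to 0.10, limma adjusted p = 0.456), and crybb1 was called lower when light lesion replicate 1 was left out (log2 fold change -0.16, limma adjusted p = 0.0233). Without light lesion replicates 1 and 3 its log2 fold change was -0.16 and did not pass (limma adjusted p = 0.0655).

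The acidic cryba4 lay above background on all 8 arrays and was nearly constant. It measured 8.35, 8.40, 8.55 and 8.35 in light lesion replicates 1 to 4 and 8.45, 8.39, 8.43 and 8.39 in control replicates 1 to 4. The highest value was in light lesion replicate 3, and light lesion replicates 1 and 4 were the lowest of all arrays, unlike replicate 1 in cryaba, crygs1, cryaa and crybb1. The log2 fold change was -0.004 (95% interval -0.13 to 0.12, limma adjusted p = 0.962), and without light lesion replicates 1 and 3 it was -0.04 (limma adjusted p = 0.636).

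Across the lesion arrays, cryaba, crygs1 and cryaa shared an order, with replicate 2 lowest, then 4, 3 and 1. This was also the order of the GAPDH 3′ minus 5′ difference in the lesion arrays, and 669 of 15502 probe sets (4.32%) had it. Control replicate 3, which had the highest GAPDH difference among controls, was also the highest control for cryaa, cryaba, crygs1 and crybb1. It was likewise the highest control in 56.0% of the probe sets at or below background in both groups. The controls at 0.0297 to 0.0774 and light lesion replicates 2 and 4 at 0.158 and 0.181 all had cryaba below background. With the GAPDH difference as a covariate in limma, the group difference became -2.63 for cryaba (adjusted p = 0.0105), -1.46 for crygs1 (adjusted p = 0.0106) and -1.004 for cryaa (adjusted p = 0.00286). The GAPDH difference of every lesion array exceeded that of every control, so this covariate and the group can hardly be told apart.

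**Figure D4:**
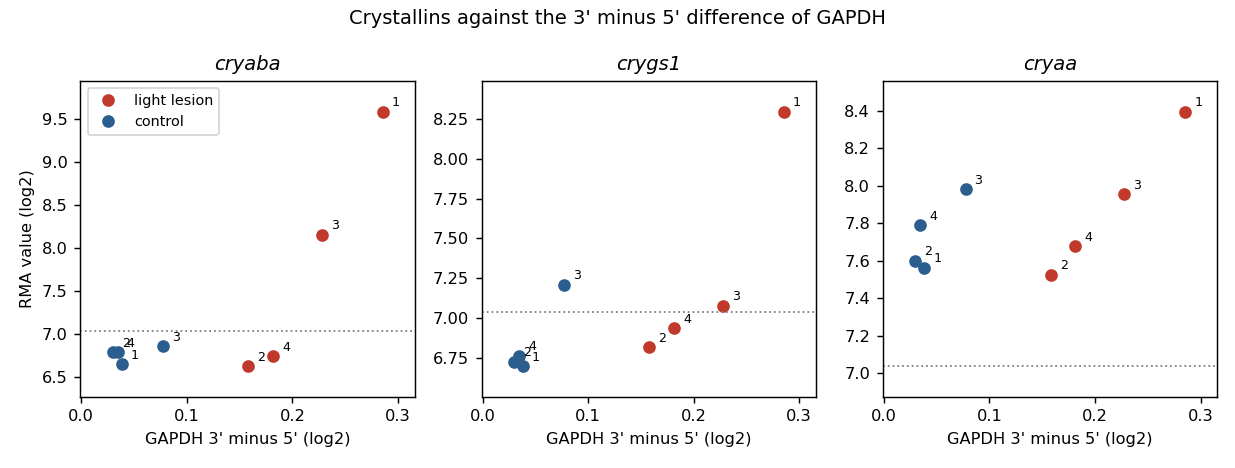
RMA values (log2) of cryaba, crygs1 and cryaa against the 3′ minus 5′ difference of the GAPDH control probe sets (log2), with light lesion arrays in red and control arrays in blue, numbered by replicate; the dotted line is the background level. The lesion arrays follow the order 2, 4, 3, 1 on both axes, while light lesion replicates 2 and 4 lie near the controls in cryaba.

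A dissected retina can carry lens cells, so other lens genes were read beside the crystallins. Outside the members, 7 further crystallin genes of the lens and related beta-gamma families had a probe set annotated to them alone (crybg1a, crybg1b, crygm2c, crygm2f, crygm6, crygmxl2 and crygs2). None of the 7 was called (limma, adjusted p from 0.157 to 0.797, with 0 at an unadjusted p under 0.05). In both groups 4 of the 7 lay at background, and their log2 fold changes ran from -0.19 to 0.06. In light lesion replicate 1 the largest excess over the control mean among them was that of crygm6, at 0.23, and its value there, 6.04, lay below background. The summed linear level of the 7 genes ran from 721 to 816 in light lesion arrays and from 747 to 953 in control arrays, with control replicate 3 the highest. As the 7 genes lay at or near background, this sum is mostly background signal and cannot rank the arrays by lens RNA.

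Of 29 listed lens genes outside the crystallins 6 were measured, and 4 of them lay at background in both groups. The beaded filament gene bfsp2, a defining component of lens fibre cells, measured 6.81, 6.63, 6.73 and 6.72 in light lesion replicates 1 to 4 and 6.70, 6.75, 6.96 and 6.82 in control replicates 1 to 4, all below background. The lens fibre connexin gja3 measured 7.43, 6.86, 7.13 and 7.08 in light lesion replicates 1 to 4 and 6.98, 7.01, 7.74 and 7.24 in control replicates 1 to 4. The connexin gja8b measured 7.35, 7.17, 7.09 and 7.20 in light lesion replicates 1 to 4 and 7.01, 7.16, 7.59 and 7.19 in control replicates 1 to 4. Control replicate 3 was the highest array for gja3, gja8b and bfsp2, as in 43.4% of probe sets at or below background in both groups. In light lesion replicates 1 and 3 the levels of these genes lay within the control range.

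The only gene of this list that was called was lctla, which rose by 0.49 (limma adjusted p = 0.00822) with both group means below background. The summed linear level of the 6 lens genes ran from 722 to 828 in light lesion arrays and from 673 to 888 in control arrays. With 4 of the 6 at background in both groups and the group means of gja3 and gja8b close to it, these sums are mostly background signal. They cannot rank the arrays by lens RNA. Within the lesion group the highest sum was that of light lesion replicate 1, which lay below control replicate 3, and light lesion replicate 3 lay below replicates 1 and 4. The part of lens cells in the crystallin values was not tested.

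**Figure D5:**
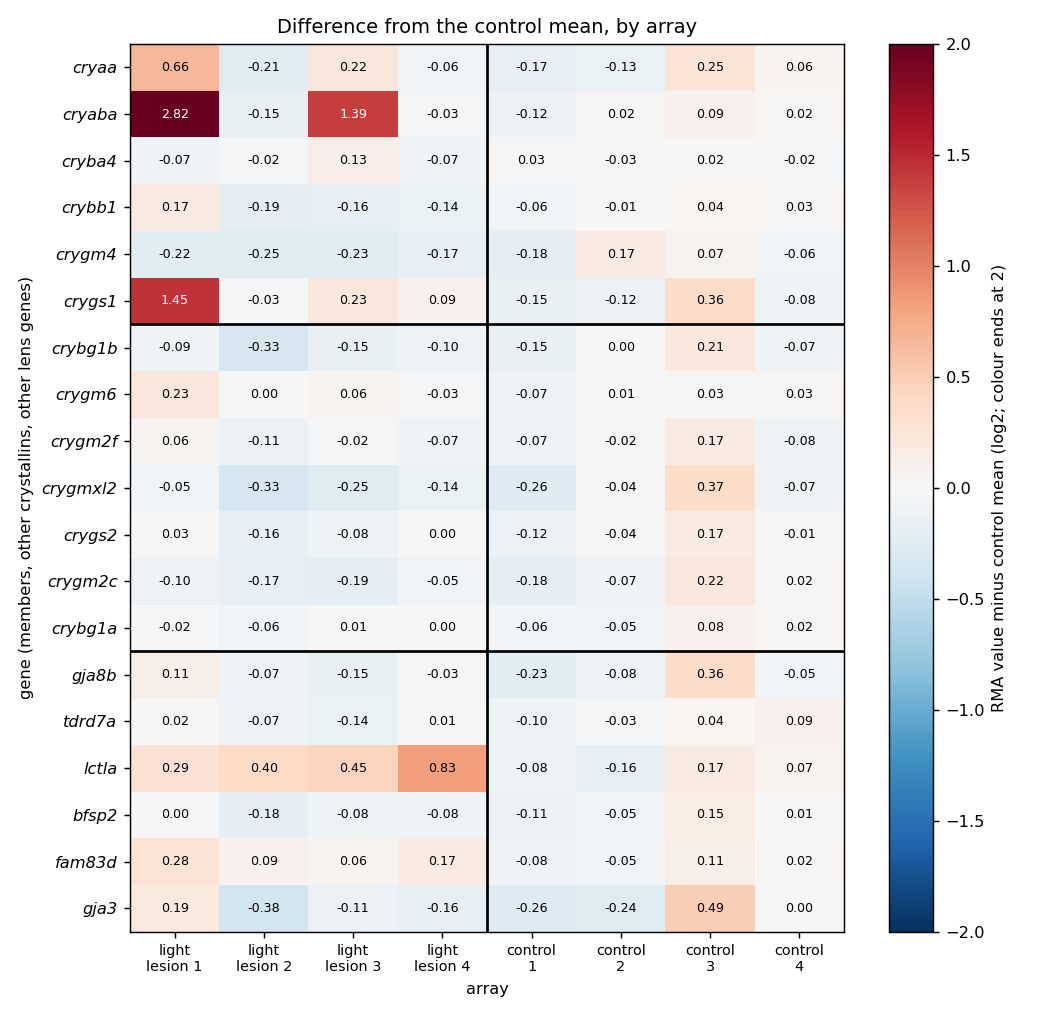
Difference of each array from the control mean (log2) for the 6 members, 7 other crystallins and 6 other lens genes, with light lesion arrays at the left and control arrays at the right; the colour scale ends at 2. The excess in light lesion replicate 1 is seen for cryaba (2.82), crygs1 (1.45) and cryaa (0.66), whereas the largest lens gene differences in control arrays are those of control replicate 3.

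The alphaB-crystallins of mammals are also abundant in muscle, and crystallins are known from retinal glia and ganglion cells, so markers of these cells were read as well. Over all genes 24.4% were called higher and 20.1% lower, and these shares stand behind each marker count. Of 18 muscle genes measured 1 rose and 4 fell, with a summed linear level of 3354 to 3688 in light lesion arrays and 3377 to 3857 in control arrays. The gene that rose, eno3, was by far the brightest, with means of 10.25 in light lesion and 9.94 in control arrays. Most of the others lay near or below background, so the muscle sum says little of muscle RNA. Of 11 Müller glia genes 5 rose and 3 fell, with a summed level of 47340 to 50391 in light lesion arrays and 37991 to 40372 in control arrays. The largest rise was that of fabp7a, with means of 13.44 in light lesion and 11.20 in control arrays. The 3 that fell were glula, cahz and aqp1a.1, and rlbp1a did not pass. The Müller glia sum thus does not stand for a rise of the whole list. Of 8 ganglion cell genes 2 rose and 6 fell, with a summed level of 8770 to 9257 in light lesion arrays and 13588 to 14528 in control arrays. None of these sums set light lesion replicates 1 and 3 apart from 2 and 4, and their part in the crystallin values was not tested.

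The corneal and skin epithelium list rose in 3 of 12 measured genes and fell in 2, near the shares over all genes (24.4% higher and 20.1% lower). Of the 12, 7 lay at background in both groups, among them krt4, called higher, and krt94, called lower. With dim probe sets left out, 5 were measured, of which 2 rose and 1 fell. The summed level of the 12 was 7748 to 10258 in light lesion arrays and 3227 to 3364 in control arrays, most of it from icn and krt8. Of 7 pigment epithelium genes 4 rose and none was called lower, with a summed level of 44673 to 50955 in light lesion arrays and 29451 to 32846 in control arrays. Light lesion replicate 1, where cryaba was highest, had the lowest of the lesion sums for both lists. Light lesion replicate 3, where cryaba was second highest, had the highest pigment epithelium sum, 50955. The part of these tissues in the crystallin values was not tested.

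Transcription factors known to control crystallin genes in the developing lens were measured for 10 of 20 listed genes, of which 3 rose and 7 fell, against 24.4% of all genes called higher and 20.1% called lower. Several of these factors also act in retinal neurons and progenitors. Both group means lay below background for mafaa, called lower, and sox3, called higher. With dim probe sets left out, 8 were measured, of which 2 rose and 6 fell. The eye field factor pax6b measured 9.09, 9.61, 8.76 and 8.68 in light lesion replicates 1 to 4, against 10.30, 10.25, 9.97 and 10.02 in control replicates 1 to 4 (log2 fold change -1.098, limma adjusted p = 0.00119). The homeobox gene prox1a, needed for lens fibre differentiation in mice, had a log2 fold change of -1.03 (limma adjusted p = 9.81e-04) and pax6a one of -0.54 (limma adjusted p = 7.81e-04). Among the 3 that rose, mafbb had a log2 fold change of 0.96 (limma adjusted p = 0.0107) and sox2 one of 0.53 (limma adjusted p = 0.00285). Of the heat shock factors, hsf1 and hsf2, activators of chaperone genes, fell by 0.39 and 0.51 (limma adjusted p = 0.00437 and 0.00720). A further one, hsf5, lay below background in both groups and was not called (limma adjusted p = 0.313).

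By their values over the 8 arrays, the named genes most like cryaba were prmt2 (r = 0.95), viml (r = 0.93) and dusp22a (r = 0.93). All 8 points share the array normalization, and these correlations rest on light lesion replicates 1 and 3, since over the other 6 arrays r was -0.21, -0.50 and -0.41. Over the 8 arrays their SDs were only 0.0780, 0.127 and 0.108, and 18 probe sets reached r of 0.9 or more with cryaba. On every array prmt2 lay below background (5.83 to 6.08), and dusp22a exceeded it only in light lesion replicate 1 (7.18). For cryba4, the member with the highest mean, the closest were sncb (r = 0.89), soul4 (r = 0.87) and hmgcs1 (r = 0.87). Over 6 arrays without light lesion replicate 3 and control replicate 1, soul4 kept r = 0.84, while sncb had 0.34 and hmgcs1 0.46.

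Genes named crystallin for a role in the lens of some animals, but active as enzymes or hormone-binding proteins elsewhere, were counted apart. The sugar dehydrogenase gene cryl1 measured 8.30, 8.45, 8.26 and 8.26 in light lesion replicates 1 to 4, against 8.09, 8.08, 8.15 and 8.13 in control replicates 1 to 4. The groups did not overlap, and cryl1 rose by 0.20 (SE 0.05, limma adjusted p = 0.0135). The call was lost with the GAPDH covariate and at a threshold of 0.01. The thyroid hormone-binding crym lay below background on all arrays (log2 fold change 0.02, limma adjusted p = 0.734).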

How the data were processed

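Whole-retina RNA was hybridised to 8 Affymetrix zebrafish arrays. The values that the authors deposited are on a log2 scale and come from RMA, per the submitters' processing notes, which name no version or settings; their range (5.47 to 14.89) was taken to show base 2. Titles of the samples gave each array's group and replicate number. Of 15617 probe sets, 115 AFFX controls were left out. The array annotation gave 1 symbol for 10795 of the other 15502, several for 135 and none for 4572. For a gene with several probe sets, lists used the one with the highest mean. Coordinates and sequences were not used here.

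The comparison of groups used lmFit and eBayes of limma 3.58.1 (R 4.3.3), without covariates and two-sided, with Benjamini-Hochberg adjustment over all 15502 probe sets and a threshold of 0.05. Intervals of 95% come from that fit. The number of arrays limits the precision. The steps were tested on simulated arrays. Alternatives were a replicate block, a second quantile normalization, median centring, a filter on dim probe sets, other variance priors, array weights, a GAPDH covariate, each array left out, averaged probe sets, a threshold of 0.01 and another background level. Those without light lesion replicates 1 and 3 and the permutation test per gene were chosen after seeing the data. The members and lists were chosen with earlier results of these data known. Named genes were the members, the 3 genes of highest correlation with the most variable and the brightest member, and from each list those of smallest p or highest mean. Others were named after their values were seen. They were serpinh1b, the enzyme crystallins, hsf1, hsf2, hsf5, and lens, marker and regulator genes beyond that rule.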

Additional observations from a re-analysis of the deposited data

Results flagged for a closer look

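In groups of 4 arrays, an array was set apart when its gap to the nearest array exceeded Dixon's 95% critical share of the group's range, over 54 groups from the crystallins, the other lens genes and the small heat shock proteins. By chance about 1 in 20 groups would be marked, and 2 were. For crybb1, light lesion replicate 1 at 7.32 stood apart from the next lesion array at 7.01. For crygs1, control replicate 3 at 7.21 stood apart from the next control at 6.76. The cryaba value of light lesion replicate 1 was not marked in this way, because light lesion replicate 3 was high as well.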

How the results depend on the processing

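The 1 crystallin call of the comparison, crygm4, was not stable: the count of called crystallins was 0 with the replicate block, at a threshold of 0.01 and without light lesion replicates 1 and 3 together, ran from 0 to 1 when 1 array was left out, and was 4, all lower, with the GAPDH covariate. Without light lesion replicate 1 the 1 call was crybb1 and not crygm4. With the block crygm4 had a limma adjusted p = 0.0692, and the block changed no other crystallin call. Deviations of same-numbered arrays correlated at -0.21, 0.28, -0.24 and 0.17, and those of differently numbered arrays ranged from -0.34 to 0.33. Whether the numbers pair the samples cannot be told from such mixed values, and the labels do not say. The crystallin regulators had 7 called genes with the replicate block and also without light lesion replicates 1 and 3 together, and 8 with averaged probe sets. Their count ran from 8 to 10 when 1 array was left out and was 5 at a threshold of 0.01. With the GAPDH covariate the heat shock response list had 4 called genes and the crystallin regulators 3. The covariate also gave 1 called muscle gene (5 without it), 2 of the cornea list (5), 2 of the pigment epithelium (4), 5 of the Müller glia (8), 4 of the ganglion cells (8) and 0 of the enzyme crystallins (1), and 1 lens gene called lower in place of 1 called higher. Muscle had 3 calls at a threshold of 0.01 and also without light lesion replicates 1 and 3, and cryl1 was not called at 0.01. Taking the 25th percentile of all probe sets, 6.67, as background left 0 crystallins with a group at background, against 2. Directions turned with the GAPDH covariate for cryaba (-2.63), crygs1 (-1.46) and cryaa (-1.004), without light lesion replicates 1 and 3 for cryaba (-0.0871) and cryaa (-0.13), and without light lesion replicate 1 for cryaa (-0.0152); the cause was not tested. The near-zero value of cryba4 turned to 0.00272 with median centring and 0.0300 with array weights, and ranged from -0.0495 to 0.0171 when 1 array was left out, with turned values of 0.00736 and 0.00171 without control replicates 1 and 3 and of 0.0171 and 0.0168 without light lesion replicates 1 and 4. The cryaba minus cryaa difference was rerun only under the rescalings and with each single array left out. In these 10 alternatives it kept its direction and did not pass (0.42 to 1.13). It was not rerun with the GAPDH covariate or without light lesion replicates 1 and 3, where both genes turned, so its stability there was not tested. The small heat shock calls stayed within 2 to 3. Over all probe sets the median change was -0.04 (log2), and -0.03 under either rescaling.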
